A study of Bos taurus with 15 samples.

Results

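The 6 genes of ketone body metabolism described here were BDH1, BDH2, OXCT1, AACS, ACAT1 and SLC16A1. They were taken as the rows bearing these names in the 6 deposited comparison tables, and all 6 were found among 13896 genes. The genes were chosen by function with the fold changes and calls of these same comparisons, in exon and whole gene reads, already known, so in effect they were selected on those values. Their values in these comparisons are therefore given as a description, and nothing is drawn from how many of them passed a threshold.

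Ketone bodies are made from acetyl-CoA in the mitochondria of liver cells and, in ruminants, also from butyrate in the rumen wall. Other tissues take up 3-hydroxybutyrate and acetoacetate through monocarboxylate carriers, oxidise the former to the latter, and split acetoacetyl-CoA into acetyl-CoA for oxidation. Acetoacetate can also be activated in the cytosol and used to build fatty acids and sterols, and the cow after calving is well known for high circulating ketone bodies.

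The study sequenced RNA of subcutaneous adipose tissue from primiparous Prim Holstein cows, taken from the dewlap, in 15 libraries of 5 groups with 3 each. The -4 wkpp group (weeks peripartum) was sampled about a month before calving and before the diets began. The MNEB groups, with moderate negative energy balance, had been fed the high energy (HE) diet and were sampled at 1 and 16 wkpp. The SNEB groups, with severe negative energy balance, had been fed the low energy (LE) diet and were sampled at the same times. By the study's methods, the SNEB and MNEB libraries came from 3 cows each, chosen for the more extreme energy balance at 1 wkpp, so they do not represent all cows on a diet. How the cows of the -4 wkpp libraries were chosen is not stated there. The methods describe biopsies of every cow at all 3 times, so libraries of different times may come from the same cows. The labels do not say which ones do, and all fits treated the libraries as independent.

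Whole read counts of each library were recovered from the deposited means, for reads on exons and for reads on the entire gene. Within a group the libraries carry no name, and they are numbered here from the largest size factor to the smallest. A normalized read count is the read count divided by a size factor, the median ratio of the library's genes to their geometric mean over the 15 libraries. The -4 wkpp and SNEB libraries held 7450081 to 14137318 reads on exons, and the MNEB libraries 1973902 to 7315700. MNEB values therefore rest on fewer reads. The study's own summary lists total reads in a similar range for all groups. For every MNEB library it lists a lower aligned share and more reads with multiple maps than for any other library. The part of this in the values of the ketone body genes was not tested. The adipocyte markers looked for were present: 8 of the 9 were in the tables with usable reads, and their summed normalized exon reads lay between 11566 and 89730 in the 15 libraries.

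The largest difference in the group concerned BDH1, the mitochondrial 3-hydroxybutyrate dehydrogenase that interconverts 3-hydroxybutyrate and acetoacetate. At -4 wkpp its exons had 505, 301 and 303 reads in the 3 libraries, or 292, 185 and 284 normalized exon reads. In MNEB at 1 wkpp there were 0, 4 and 0 exon reads, and at 16 wkpp 12, 3 and 1. In SNEB there were 9, 5 and 8 exon reads at 1 wkpp, and 3, 3 and 10 at 16 wkpp. Every library after calving was thus far below every library before calving, whatever the energy balance.

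Had BDH1 stayed at its mean level of -4 wkpp, the 3 MNEB libraries at 1 wkpp would have held 242, 93.5 and 68.7 exon reads. A count of 0 still allows up to 3.14 normalized exon reads in the first of these libraries and 11.1 in the third (3 reads, counting error only). The mean of normalized exon reads was 254 ± 59.8 at -4 wkpp (SD, n = 3). In MNEB it was 3.62 ± 6.27 at 1 wkpp and 7.42 ± 4.54 at 16 wkpp, and in SNEB 4.31 ± 1.31 and 3.30 ± 2.76. The 4 groups after calving overlapped each other, and their order does not exceed their spread.

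**Figure D1:**
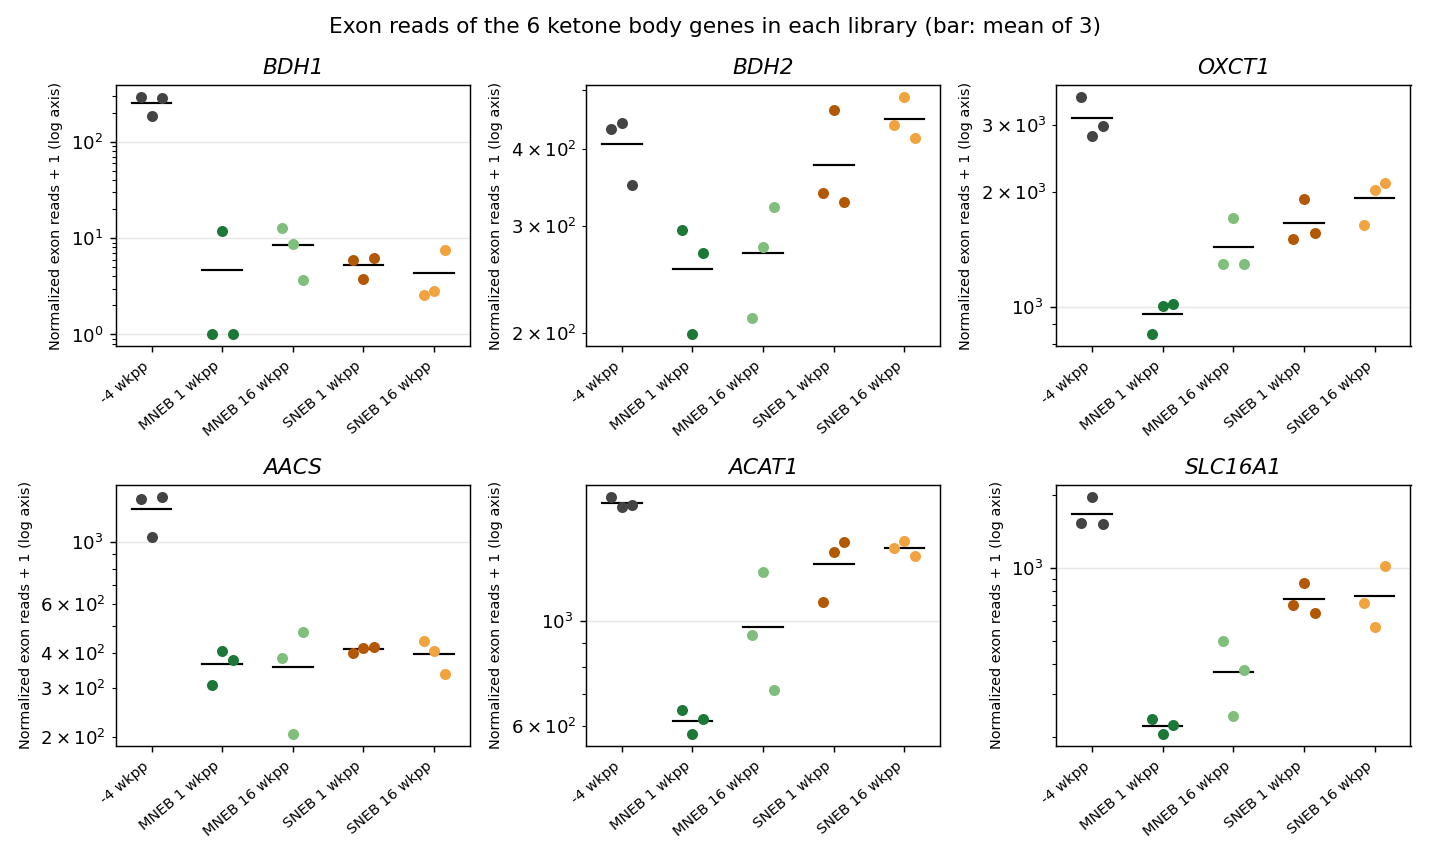
Normalized exon reads plus 1 (log axis) of the 6 genes in each of the 15 libraries, 3 per group, with a bar at the mean of each group. BDH1 had 185 to 292 normalized exon reads at -4 wkpp and at most 11.8 in any library after calving, while BDH2, the lowest of the other 5 genes on this plot's scale, had at least 198 in every library.

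Reads on the whole BDH1 gene were also highest at -4 wkpp, but the difference to MNEB at 1 wkpp was smaller than on the exons. They numbered 989, 431 and 598 at -4 wkpp, against 12, 84 and 43 in MNEB at 1 wkpp and 40, 38 and 25 in SNEB at 1 wkpp. Normalized, they were 286 to 552 at -4 wkpp, 12.9 to 238 in MNEB at 1 wkpp and 14.9 to 22.3 in SNEB at 1 wkpp. Outside the exons, -4 wkpp had 270.1, 86.4 and 225 normalized reads, and MNEB at 1 wkpp had 12.9, 226 and 155. These ranges overlapped, although the exons of the same MNEB libraries held at most 4 reads. In SNEB at 1 wkpp, reads outside the exons were 16.8, 19.3 and 10.1 normalized reads, below all 3 libraries of -4 wkpp.

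Exons took 57.2% ± 11.0 of the whole gene reads of BDH1 at -4 wkpp (SD, n = 3). In MNEB at 1 wkpp they took 0 of 12, 4 of 84 and 0 of 43 reads, where counts of 0 allow shares of up to 25.0% and 6.98%. The share was 16.8% ± 4.91 in MNEB at 16 wkpp, 22.6% ± 9.42 in SNEB at 1 wkpp and 33.4% ± 24.9 in SNEB at 16 wkpp, the last from 16 exon reads of 91 in all. For all genes together, exons took 39.2% to 59.8% of whole gene reads, and the MNEB libraries at 1 wkpp, with 47.3% to 53.8%, lay within the range of the others. Where in the gene these reads lay was not analysed here.

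**Figure D2:**
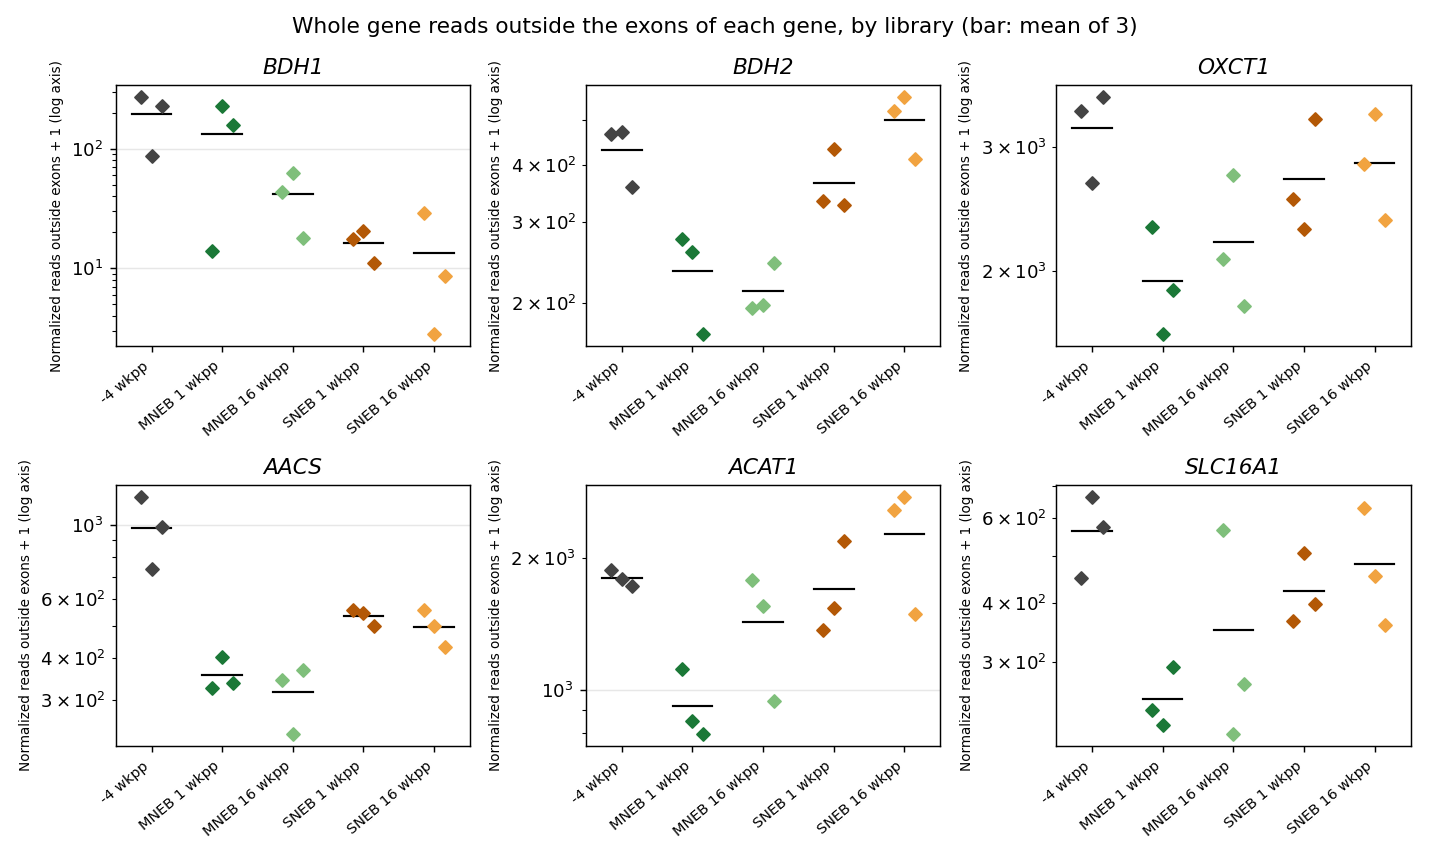
Whole gene reads outside the exons of each gene, normalized and with 1 added (log axis), in each of the 15 libraries, with a bar at the mean of 3. For BDH1 the MNEB libraries at 1 wkpp spread from 12.9 to 226 and overlapped those of -4 wkpp, which lay between 86.4 and 270.1.

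SLC16A1, the monocarboxylate carrier MCT1 that moves ketone bodies, lactate and pyruvate across the cell membrane with a proton, showed the next largest difference. Its normalized exon reads were 1533, 1973 and 1517 at -4 wkpp. They were 236, 204 and 221 in MNEB at 1 wkpp, and 495, 243 and 375 at 16 wkpp. All 6 MNEB libraries lay below all 6 SNEB libraries, which had 701, 865 and 652 at 1 wkpp and 713, 569 and 1016 at 16 wkpp. The order of the group means was -4 wkpp (1674 ± 259), SNEB at 16 wkpp (766 ± 228), SNEB at 1 wkpp (739 ± 112), MNEB at 16 wkpp (371 ± 126) and MNEB at 1 wkpp (220.2 ± 16.1). The 2 SNEB groups overlapped, and the other neighbours in this order did not.

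Exons took 73.7% ± 4.77 of the SLC16A1 reads at -4 wkpp, 47.3% ± 4.17 in MNEB at 1 wkpp and 63.2% ± 2.96 in SNEB at 1 wkpp (SD, n = 3 each). Whole gene reads had means of 2179 ± 543 normalized reads at -4 wkpp, 474 ± 38.8 in MNEB and 1154 ± 224 in SNEB at 1 wkpp.

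OXCT1 encodes the mitochondrial transferase that activates acetoacetate with CoA from succinyl-CoA, the step that commits a tissue to burning ketone bodies. Its normalized exon reads were 3553, 2812 and 2987 at -4 wkpp. After calving they were 845, 1007 and 1015 in MNEB at 1 wkpp, 1295, 1704 and 1297 in MNEB at 16 wkpp, 1503, 1915 and 1557 in SNEB at 1 wkpp, and 1638, 2028 and 2107 in SNEB at 16 wkpp. The 3 libraries of -4 wkpp were above all others and those of MNEB at 1 wkpp below all others, while the ranges of the remaining groups overlapped each other.

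ACAT1, the mitochondrial thiolase that splits acetoacetyl-CoA into acetyl-CoA, followed a similar order. It had 1829.9, 1737 and 1754 normalized exon reads at -4 wkpp, against 647, 575 and 620.2 in MNEB at 1 wkpp and 933, 1265 and 713 at 16 wkpp. In SNEB it had 1096, 1395 and 1464 at 1 wkpp, and 1426, 1472 and 1372 at 16 wkpp. MNEB at 1 wkpp was again the lowest group without overlap, and SNEB was nearest to the level before calving.

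AACS, the cytosolic acetoacetyl-CoA synthetase that feeds acetoacetate into fatty acid and sterol synthesis, had exon reads that overlapped between MNEB and SNEB at both times, where those of OXCT1 and ACAT1 did not overlap at 1 wkpp. It had 1419, 1039 and 1447 normalized exon reads at -4 wkpp. Later means were 363 ± 52.0 (MNEB, 1 wkpp), 355 ± 138 (MNEB, 16 wkpp), 412 ± 11.3 (SNEB, 1 wkpp) and 394 ± 52.7 (SNEB, 16 wkpp), each with its SD and n = 3. All 12 libraries after calving lay between 204 and 476, and the 4 groups overlapped. In whole gene reads, however, AACS did not overlap at 1 wkpp, with 882 to 978 normalized reads in SNEB and 638 to 826 in MNEB.

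BDH2, a cytosolic short-chain dehydrogenase named for activity on 3-hydroxybutyrate, had the smallest span of group means, from 254 ± 49.9 to 447 ± 35.7. It had 431, 439.9 and 348 normalized exon reads at -4 wkpp, 294, 198 and 269 in MNEB at 1 wkpp, and 211, 276 and 321 in MNEB at 16 wkpp. SNEB had 338, 463 and 327 at 1 wkpp and 438, 486 and 417 at 16 wkpp, so that both SNEB groups overlapped -4 wkpp. BDH1 and BDH2, although paired in name, thus had unlike patterns, with a Pearson r of 0.17 between their log2 values over the 15 libraries. Over the same libraries r was 0.91 for OXCT1 with ACAT1, 0.89 for OXCT1 with SLC16A1 and 0.84 for BDH1 with AACS, a description of libraries that share groups and depth. Over the 12 libraries after calving, r stayed at 0.92 and 0.78 for the first 2 pairs and was -0.09 for BDH1 with AACS, which rests on few BDH1 reads.

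Fold changes were fitted with limma on log2(normalized reads + 1), separately for exon and whole gene reads and with the 6 libraries of each comparison. A gene was called when the adjusted p was below 0.01 in both with the same direction. All log2 fold changes below are on this scale, first-named group over second, with their standard error (SE). A difference in a tissue sample can come from fewer cells of a type or from less RNA per cell, which cannot be told apart here.

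Between -4 wkpp and MNEB at 1 wkpp, exon reads of all 6 genes were higher before calving and the groups did not overlap. Of all genes tested, 46.9% also showed no overlap in this comparison. The log2 fold change of exon reads was 6.57 ± 0.84 for BDH1 and 2.92 ± 0.21 for SLC16A1. It was 1.84 ± 0.22 for AACS, 1.71 ± 0.20 for OXCT1, 1.54 ± 0.19 for ACAT1 and 0.70 ± 0.24 for BDH2. With 0, 4 and 0 reads in MNEB, the value of BDH1 depends on the pseudocount, and was 7.26 ± 1.05 with 0.5 and 4.89 ± 0.46 with 5 in place of 1.

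In whole gene reads, the difference between -4 wkpp and MNEB at 1 wkpp was smaller for BDH1 (2.40 ± 0.99), SLC16A1 (2.20 ± 0.23), AACS (1.63 ± 0.20), ACAT1 (1.21 ± 0.19) and OXCT1 (1.11 ± 0.18), and was 0.76 ± 0.25 for BDH2. AACS and SLC16A1 passed in both kinds of read, so that 2 of 6 genes were called, both higher at -4 wkpp. Of all genes, 2.33% were called, 1.39% higher and 0.941% lower at -4 wkpp, and nothing is read from this since the list was made with the comparison known. BDH1, OXCT1 and ACAT1 passed with exon reads only, where 17.1% of all genes passed with exon reads alone. Without MNEB library 1 the count was 4 (4.28% of all genes), and without any other single library of the 6 it was 0, with at most 16 of all genes called.

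**Figure D3:**
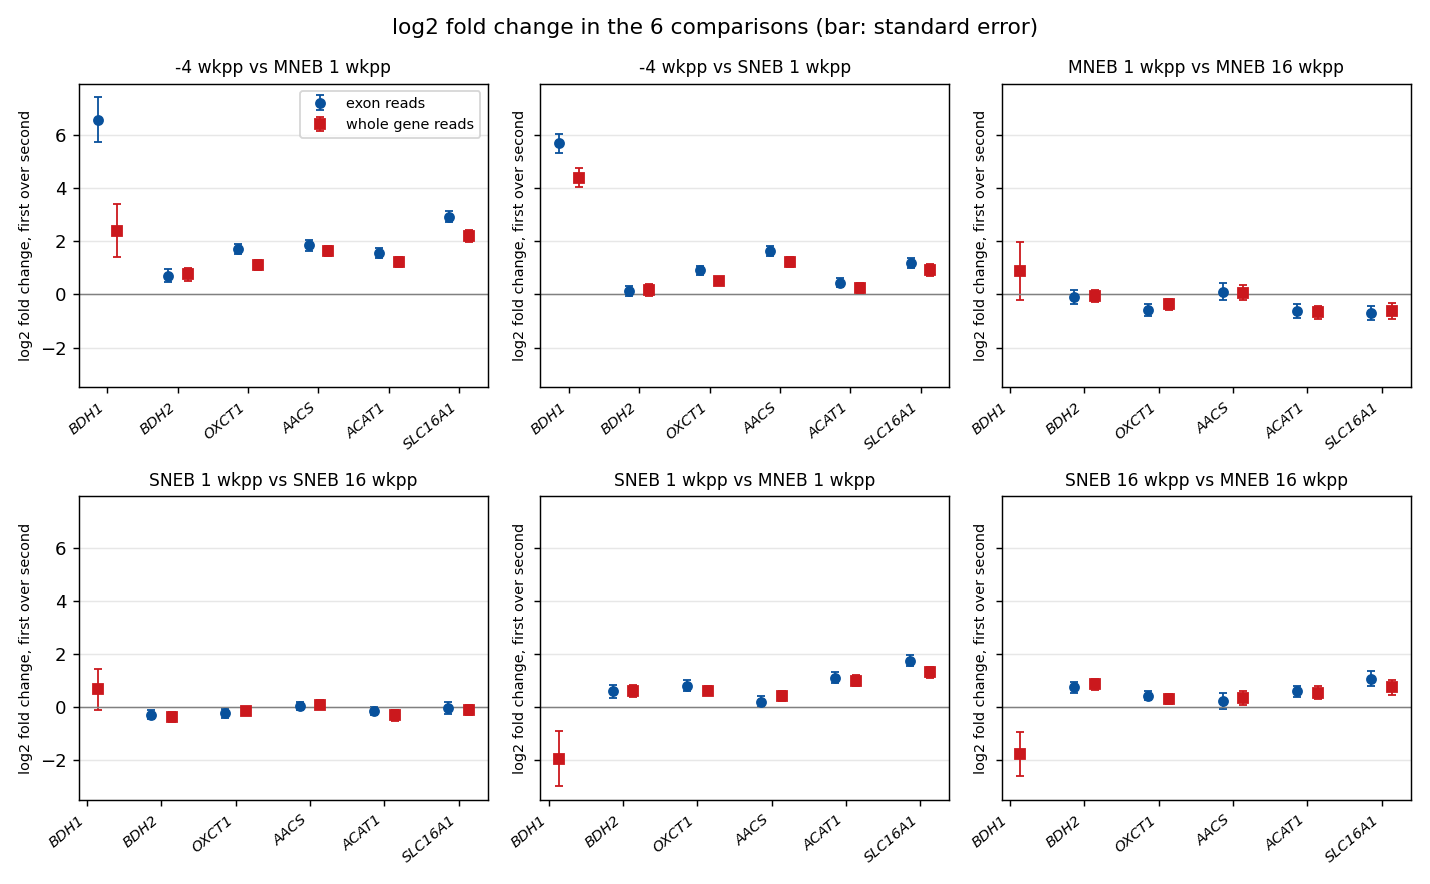
log2 fold change, first-named over second-named group, of exon reads (circles) and whole gene reads (squares) for the 6 genes in the 6 comparisons, with bars for the standard error. BDH1 exon reads were too few for a fit in the 4 comparisons without -4 wkpp and are not drawn there. In -4 wkpp vs MNEB 1 wkpp the exon value of BDH1 (6.57) stands far above its whole gene value (2.40).

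Markers of tissues were read beside these values. Summed normalized exon reads of 9 skeletal muscle markers were 1303 to 4271 in MNEB and 97.1 to 373 in the other 9 libraries. The sum was nearly all TNNT3, a fast troponin T, with means of 2213 in MNEB at 1 wkpp and 206 at -4 wkpp, followed by ATP2A1, a calcium pump of fast fibres, with 133 and 15.1. The other 7, which include the muscle actin ACTA1 and 3 myosin heavy chains, had group means of at most 33.5 normalized exon reads anywhere, so most of the list was near 0 in all groups. The 8 adipocyte markers summed to 20472 to 58134 in MNEB at 1 wkpp and 11566 to 43676 at 16 wkpp, against 72386 to 74486 at -4 wkpp. Among them CIDEC, a lipid droplet protein, LPL, lipoprotein lipase, and GPD1, glycerol-3-phosphate dehydrogenase, were called higher at -4 wkpp than in MNEB at 1 wkpp, with 2.36 ± 0.21, 4.76 ± 0.34 and 2.24 ± 0.20 (log2 fold change of exon reads, SE). PLIN1, the lipid droplet coat perilipin, was not called, with 0.85 ± 0.26, nor was FABP4, the fatty acid binding protein, with 0.85 ± 0.58, nor LEP, leptin, with 3.57 ± 0.36. The list did not move as a whole: PPARG, the adipocyte transcription factor, stood at 0.26 ± 0.25, and LIPE, hormone-sensitive lipase, was on the other side with -0.94 ± 0.26. Endothelial markers summed to 18170 to 22245 at -4 wkpp and 28535 to 60613 in MNEB at 1 wkpp, and lymphatic markers to 1683 to 2018 and 302 to 683, both without overlap. The lymphatic difference lay in LYVE1, a receptor of lymphatic endothelium (2.93 ± 0.29, called), and CCL21, a chemokine (5.29 ± 0.59), while PROX1, a transcription factor of the same cells, had 0.06 ± 0.35. The part of these shifts in the values of the ketone body genes was not tested.

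The comparison of -4 wkpp with SNEB at 1 wkpp used the same libraries of -4 wkpp. Here adipocyte markers summed to 73754 to 89730 in SNEB, a range that overlapped that before calving, and muscle markers to 116 to 320.3, within the range before calving. Behind the adipocyte sum, members went in opposite directions: FABP4 had a log2 fold change of exon reads of -1.12 ± 0.24, LIPE -0.98 ± 0.20 and PLIN1 -0.59 ± 0.21, while LPL had 3.21 ± 0.59, LEP 1.39 ± 0.22 and CIDEC 0.55 ± 0.22. Of this list GPD1 was called, higher at -4 wkpp with 2.33 ± 0.21. Markers of 2 other tissues did not overlap here. Those of epidermis and hair summed to 198 to 688 at -4 wkpp and 3.28 to 10.3 in SNEB, where KRT85, a hair keratin, was 1 of the 10 genes called, and those of endothelium to 18170 to 22245 and 28013 to 34920. Their part was not tested. Exon reads were higher at -4 wkpp without overlap for 5 of 6 genes, where 19.8% of all genes showed no overlap. The log2 fold change of exon reads was 5.69 ± 0.36 for BDH1, 1.64 ± 0.18 for AACS, 1.18 ± 0.18 for SLC16A1, 0.91 ± 0.17 for OXCT1, 0.44 ± 0.16 for ACAT1 and 0.12 ± 0.20 for BDH2.

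With whole gene reads BDH1 stood at 4.39 ± 0.36 and AACS at 1.22 ± 0.18 in this comparison, and the other 4 lay between 0.16 and 0.91. BDH1 was the 1 gene of the 6 called, higher at -4 wkpp, where 0.0944% of all genes, 10 of 10588, were called in this direction. Nothing is read from this, since the list was made knowing it. AACS passed with exon reads only, where 0.774% of all genes passed with exon reads alone. The count became 0 without library 1 or 3 of -4 wkpp or library 1 or 3 of SNEB at 1 wkpp. In each of these fits 0% of all genes were called. The count stayed at 1 without library 2 of -4 wkpp (0.0567% of all genes) or of SNEB at 1 wkpp (1.65%). With 1 library left out, the log2 fold change of BDH1 exon reads ranged from 5.44 to 5.92.

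Between 1 and 16 wkpp, none of the 6 genes was called by limma in either diet group, and of all genes 0% were. At an unadjusted p below 0.05 in both kinds of read, 1 gene passed in MNEB, ACAT1, and 0 in SNEB, beside 8.38% and 4.69% of all genes. In MNEB the log2 fold change of exon reads, 1 over 16 wkpp, was -0.63 ± 0.25 for ACAT1, -0.70 ± 0.28 for SLC16A1 and -0.58 ± 0.22 for OXCT1, with groups that did not overlap for these 3 genes (20.1% of all genes). It was -0.09 ± 0.26 for BDH2 and 0.10 ± 0.32 for AACS. In SNEB all 5 fitted values lay between -0.28 and 0.05, and all 6 genes overlapped, where 12.1% of all genes did not.

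BDH1 had too few exon reads for a fit in these comparisons (a mean below 10 normalized reads). Its whole gene values, 0.87 ± 1.09 in MNEB and 0.67 ± 0.76 in SNEB, were within 1 SE of 0. The difference between the diet groups in the change from 1 to 16 wkpp was tested as an interaction over the 12 libraries, taken as independent although they may be repeated samples of the same cows. For none of the 6 genes was it called by limma, 0 passed at an unadjusted p below 0.05 in both kinds of read (3.74% of all genes), and of all genes 0% were called. The interaction values of exon reads ran from -0.67 ± 0.37 for SLC16A1 to 0.18 ± 0.31 for BDH2.

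SNEB and MNEB were compared directly at each time. At 1 wkpp, exon reads of BDH2, OXCT1, ACAT1 and SLC16A1 were higher in SNEB without overlap (39.7% of all genes showed none). Their log2 fold changes were 0.59 ± 0.25, 0.81 ± 0.20, 1.11 ± 0.21 and 1.75 ± 0.21, and AACS had 0.21 ± 0.21. None of the 6 was called by limma, and 0% of all genes were. These 4 genes passed an unadjusted p below 0.05 in both kinds of read, as did 22.1% of all genes. SLC16A1 passed the adjusted threshold with exon reads alone, as did 3.36% of all genes. Without MNEB library 1 the count was 2, ACAT1 and SLC16A1, and 6.50% of all genes were called.

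Markers of several cell types also differed between SNEB and MNEB at 1 wkpp, and their part was not tested. Adipocyte markers summed to 73754 to 89730 normalized exon reads in SNEB and 20472 to 58134 in MNEB, with log2 fold changes of 1.44 ± 0.26 for PLIN1 and 1.82 ± 0.25 for CIDEC, but -0.09 ± 0.25 for GPD1 and 0.05 ± 0.27 for LIPE. Macrophage markers summed to 9852 to 20611 in SNEB and 2374 to 8277 in MNEB, with 1.97 ± 0.47 for CD163, a scavenger receptor, and 3.02 ± 0.59 for C1QA, a complement component. The log2 fold change was 3.49 ± 0.33 for LYVE1 and 0.11 ± 0.44 for PROX1. Muscle markers summed to 116 to 320.3 in SNEB and 1303 to 4271 in MNEB. TNNT3, with means of 223 and 2213, and ATP2A1, with 16.9 and 133, carried this sum, and most of the list was near 0. None of these markers was called in this comparison, where 0% of all genes were. Of the 5 macrophage markers, 3 were tested in both kinds of read.

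For BDH1 at 1 wkpp, whole gene reads were lower in SNEB than in MNEB by a log2 fold change of -1.94 ± 1.04. The direction came from 2 of the 3 MNEB libraries, since the first, with 12.9 normalized reads, was below all 3 SNEB libraries (14.9 to 22.3). Exon reads, with 4 in all in MNEB and 22 in SNEB, allowed no comparison.

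At 16 wkpp, exon reads of BDH2, ACAT1 and SLC16A1 were higher in SNEB without overlap (44.1% of all genes). The log2 fold changes were 0.75 ± 0.20, 0.60 ± 0.21 and 1.07 ± 0.29, beside 0.43 ± 0.18 for OXCT1 and 0.23 ± 0.29 for AACS. None of the 6 was called by limma, while 4.61% of all genes were called, 1.62% higher and 2.99% lower in SNEB, and 3 of the 6, these same genes, passed an unadjusted p below 0.05 in both kinds of read, as did 26.9% of all genes. As the list was made with these comparisons known, nothing is read from the counts. Of the muscle markers, TNNT3 (means of 2836 normalized exon reads in MNEB and 288 in SNEB) and ATP2A1 (153 and 19.7) again carried the sum of 1787 to 3981 in MNEB against 234 to 373 in SNEB. TNNT3 was called, with -3.23 ± 0.30, SNEB over MNEB, and the other 7 had means of at most 13.1. Macrophage markers summed to 18423 to 22369 in SNEB and 2343 to 3033 in MNEB, and adipocyte markers to 44533 to 51553 and 11566 to 43676, with 1.67 ± 0.32 for CIDEC and 1.15 ± 0.44 for PLIN1, but -1.88 ± 0.67 for LEP, -0.14 ± 0.37 for GPD1 and 0.03 ± 0.45 for LIPE. The part of these markers was not tested.

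Other genes of the pathway, in lists that hold none of the 6, were followed before and after calving, as log2 fold changes of exon reads at -4 wkpp over each diet group at 1 wkpp. The medians of all genes tested were 0.04 over MNEB and -0.02 over SNEB. Of 4 tested genes that handle acetoacetyl-CoA elsewhere, 0 were called. Without MNEB library 1, 2 were called over MNEB, ACAT2 and ACAA2, where 4.28% of all genes were. The cytosolic thiolase ACAT2 had 2.77 ± 0.33 over MNEB and 1.90 ± 0.34 over SNEB, and HMGCS1, the cytosolic synthase of the sterol pathway, 2.49 ± 0.43 and 2.00 ± 0.31. Their list medians were 2.03 and 1.19.

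Among the monocarboxylate carriers and their partners, 2 of 4 tested genes were called higher at -4 wkpp than in MNEB at 1 wkpp and 0 against SNEB, with medians of 1.81 and 0.70. Of all genes, 1.39% and 0.0944% were called in this direction. As these lists were chosen with earlier results known, nothing is read from their counts. SLC16A7, the carrier MCT2, had 3.83 ± 0.32 over MNEB and 1.34 ± 0.23 over SNEB. BSG, basigin, the chaperone that brings MCT1 to the membrane, had 2.51 ± 0.22 and 1.52 ± 0.22. SLC16A7 was also the 1 of 4 called between SNEB and MNEB at 16 wkpp, higher in SNEB with 2.22 ± 0.23 (1.62% of all genes). SLC16A3, the carrier MCT4, was not called, with 1.11 ± 0.61 over MNEB and 0.06 ± 0.43 over SNEB, nor was SLC16A6, with -1.10 ± 0.53 and -0.00 ± 0.42. Over MNEB the count of 2 was kept without MNEB library 1, where 4.28% of all genes were called. It became 0 without any other single library, where 0.00967% to 0.152% of all genes were called.

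Of the receptors, HCAR1, which senses lactate, was fitted, with -0.31 ± 0.67 over MNEB and -1.52 ± 0.32 over SNEB, and FFAR3, a receptor of short-chain fatty acids, only over SNEB, with -0.46 ± 0.50. Neither was called, and the medians were -0.31 and -0.99. The 4 tested regulators (PPARA, PPARGC1A, SIRT3 and ESRRA) had values between -0.50 and 0.38 in both comparisons, with 0 called and medians of -0.02 and -0.02.

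The genes of acetate use and fatty acid synthesis, to which AACS leads, held the most called genes of these lists. Against MNEB at 1 wkpp 7 of 8 tested genes were called, all higher at -4 wkpp, with a median of 2.46, where 1.39% of all genes were called in this direction. Against SNEB 3 of 8 were, also higher at -4 wkpp, with a median of 2.68, where 0.0944% of all genes were. These counts changed with 1 library left out, and so did the share of all genes called. Over MNEB the count stayed at 7 without MNEB library 1 (4.28% of all genes). It fell to between 0 and 2 without any other (0.00967% to 0.152%). Over SNEB it was 4 without SNEB library 2 (1.65%) and 2 without library 2 of -4 wkpp (0.0567%). It was 0 without any other, where 0% of all genes were called. The largest called values were those of ELOVL6, a fatty acid elongase, with 4.89 ± 0.28, and ACSS2, the cytosolic acetyl-CoA synthetase, with 4.77 ± 0.27, over MNEB. Over SNEB they were those of FASN, fatty acid synthase, with 4.98 ± 0.40, and ACSS2, with 4.33 ± 0.40. The reads of SCD, the stearoyl-CoA desaturase of this list, could not be recovered. ACSS1, the mitochondrial acetyl-CoA synthetase, had a fit of exon reads only and so was not among the 8. It was on the other side, with -1.13 ± 0.23 over MNEB and -0.48 ± 0.20 over SNEB.

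For fatty acid oxidation, 0 of 12 tested genes were called in either comparison, with medians of 0.58 over MNEB and 0.03 over SNEB. HADH, a dehydrogenase of mitochondrial oxidation, had 1.72 ± 0.23 and 0.99 ± 0.24. CPT1A, the gate of fatty acid entry into mitochondria, had -1.30 ± 0.34 and -1.96 ± 0.19. ECHS1 of the same list had means of 2446 normalized exon reads at -4 wkpp, 530 in MNEB and 1012 in SNEB at 1 wkpp. Between 1 and 16 wkpp, limma called 0 tested genes of these 6 lists in either diet group, and at most 1 gene of a list passed an unadjusted p below 0.05 in both kinds of read. Between SNEB and MNEB it called only SLC16A7, at 16 wkpp. Without MNEB library 1, it called ACAA2, SLC16A7, CPT1A and HADHB at 1 wkpp, where 6.50% of all genes were called. SCD was not tested in any comparison.

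**Figure D4:**
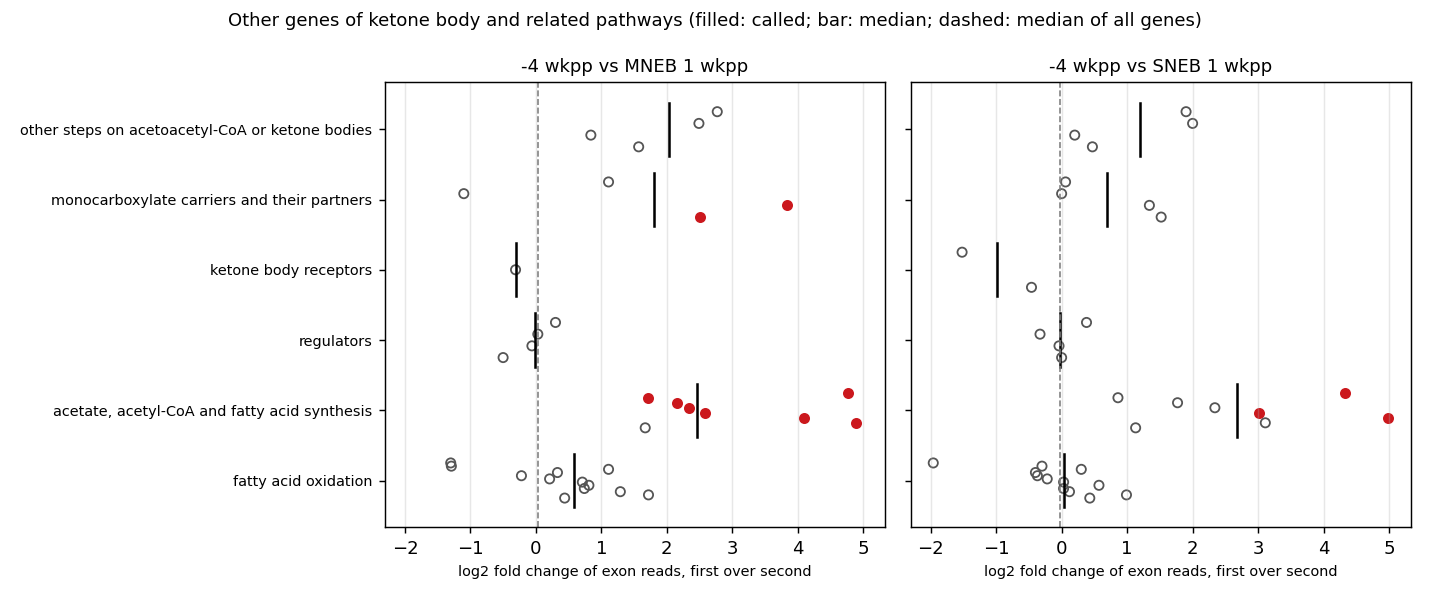
log2 fold change of exon reads at -4 wkpp over MNEB (left) and SNEB (right) at 1 wkpp, for each tested gene of 6 lists. Filled points were called, bars are list medians, and the dashed line is the median of all genes tested. The called genes lie in 2 lists, 7 of acetate use and fatty acid synthesis and 2 carrier genes on the left, and 3 of the former on the right.

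The genes whose pattern was most like that of BDH1 were sought among 8018 genes with a mean of at least 100 normalized exon reads, by the Pearson correlation of log2 values over the 15 libraries. They were HMGCS1 (r = 0.91), GPD1 (0.90), the mitochondrial ADP/ATP carrier SLC25A4 (0.89), ACSS2 (0.89) and the prion protein gene PRNP (0.89). All 5 were highest at -4 wkpp without overlap with any later group. The step was smaller than that of BDH1: mean normalized exon reads went from 5121 at -4 wkpp to between 1028 and 1103 after calving for GPD1, and from 11643 to between 439 and 909 for ACSS2. As the 3 libraries of -4 wkpp carry most of the variation of BDH1, r mainly measures this 1 step.

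**Figure D5:**
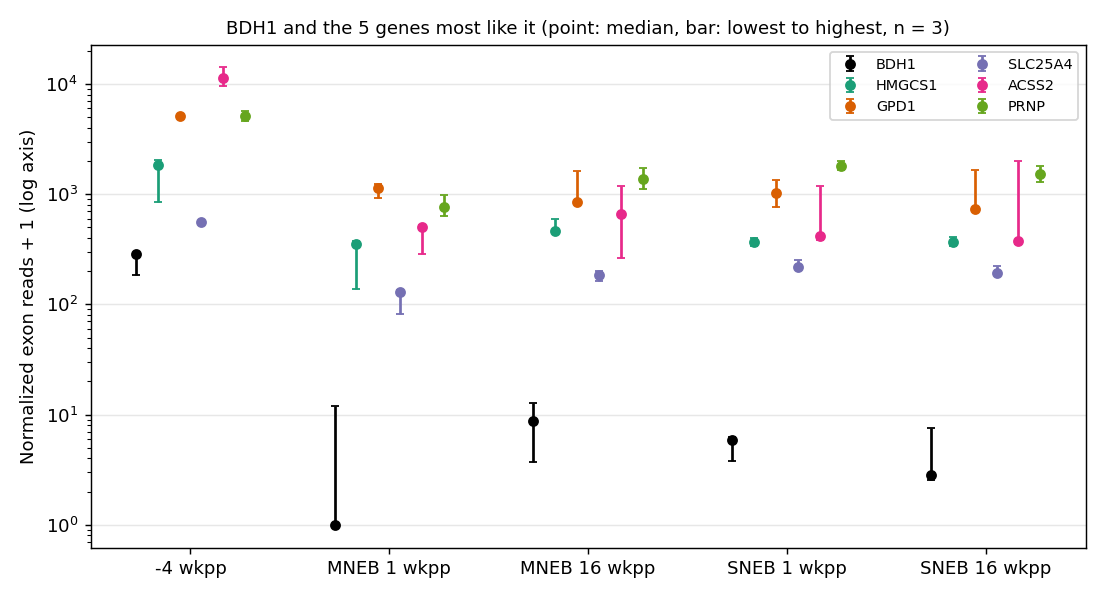
Median of the normalized exon reads plus 1 (log axis) in each group, with bars from the lowest to the highest of 3 libraries, for BDH1 and the 5 genes most like it. The other 5 genes also stood highest at -4 wkpp, and none came near the low level that BDH1 had after calving.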

How the data were processed

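The 6 deposited tables each compare 3 libraries with 3 others. For every gene the authors give the mean over both groups of counts divided by DESeq2 size factors, a normalized signal, in separate columns for exon reads and whole gene reads. The authors made TruSeq stranded total RNA libraries after ribosomal RNA depletion, sequenced them from a single end, trimmed the reads with cutadapt 1.3, aligned them with TopHat2 to bosTau8 and counted them with HTSeq. The tables also hold the authors' own DESeq2 fold changes, standard errors and p-values, which were not used. Of the columns, 0 were of samples outside the series. The plan assumed values of each library, which the tables do not list.

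Because a gene's 6 means share the same whole reads, the reads of each library could be solved from them exactly, by lattice reduction. A single solution was found for 13652 of 13661 genes with exon reads and 13341 of 13353 with whole gene reads. The others, among them SCD, COL1A1 and FN1, were left out. Size factors recomputed from these reads differed from those in the means by at most 0.0803%. For the 6 genes, leaving out 1 table still gave a single answer in 49 of 72 trials, each with the same reads. The solver and the test were tested on simulated data.

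Reads were scaled by the median of ratios, genes with a mean of at least 10 normalized reads were kept, and limma 3.58.1 (lmFit, eBayes with trend, R 4.3.3) was run per comparison on log2(value + 1), with Benjamini-Hochberg adjustment over all genes tested. Samples were grouped by GEO's labels. Replicates are samples of 1 group, and the p-values measure the spread between them. The members and gene lists were chosen with earlier results of these data known. Of the planned pathway lists, 1 is not reported here. Named genes are the 6 members, the 2 largest called changes of each list with examples that were not called, and the 5 genes most like BDH1. Alternatives were the kind of read, the threshold, pseudocount, filter, scaling, array weights, 1 fit of all libraries and each library left out.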

Additional observations from a re-analysis of the deposited data

Results flagged for a closer look

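Synthetic spike-in RNAs lie outside the comparisons of genes, and their share of reads stood out in MNEB. Over 84 of the 92 spike-ins, those with recovered reads, they took 8.87% ± 6.52 of exon reads in MNEB at 1 wkpp and 4.27% ± 2.00 at 16 wkpp (SD, n = 3), with 2.05% as the lowest MNEB library. At -4 wkpp they took 0.663% ± 0.407, with 1.13% as the highest library, in SNEB 0.521% ± 0.344 and 0.330% ± 0.166. The study's methods state 1 amount of total RNA for library preparation, the amount of spike-in is not given in the sources used here, and its part in the values of the ketone body genes was not tested.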

How the results depend on the processing

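The counts of ketone body genes called depended on the processing, and the causes were not tested beyond what each setting changes by construction. The share of all genes called stands in brackets after each count, and nothing is read from the counts of the ketone body genes. For -4 wkpp vs MNEB 1 wkpp the count of 2 (2.33%) became 5 with exon reads alone (17.1%) or array weights (22.6%), 4 at an adjusted p below 0.05 (10.6%), with scaling by total reads (3.08%) or the upper quartile (3.25%), or with all 15 libraries in 1 fit (12.1%), and 0 to 4 with 1 library left out (0.00967% to 4.28%). For -4 wkpp vs SNEB 1 wkpp the count of 1 (0.0944%) became 2 with exon reads alone (0.774%) or at an adjusted p below 0.05 (0.982%), 5 with array weights (9.21%), 0 with all 15 libraries in 1 fit (0.135%, BDH1 5.59 ± 0.87), and 0 to 1 with 1 library left out (0% to 1.65%). For SNEB 1 wkpp vs MNEB 1 wkpp the count of 0 (0%) became 1 with exon reads alone (3.36%), at an adjusted p below 0.05 (3.41%) or in 1 fit of all libraries (4.19%), 2 with array weights (13.3%), and 0 to 2 with 1 library left out (0% to 6.50%). For SNEB 16 wkpp vs MNEB 16 wkpp it became 1 at an adjusted p below 0.05 (14.5%). The remaining counts were 0 in every setting run. Some fits of the array weights stopped short of their convergence tolerance.

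Scaling by spike-in reads was chosen after seeing the data. It moved the median log2 fold change of all genes to 3.56 in -4 wkpp vs MNEB 1 wkpp, where 6 members and 66.9% of all genes were then called, 3.96 and 3.76 in SNEB vs MNEB at 1 and 16 wkpp, where 5 and 5 members and 78.4% and 91.1% of all genes were, and -0.42, -0.81 and -0.60 in the other comparisons. It reversed values near 0: BDH2 to -0.28 in -4 wkpp vs SNEB 1 wkpp, AACS to -0.71 and -0.54 from 1 to 16 wkpp in MNEB and SNEB, and BDH2 and AACS to -0.01 and -0.16 in the interaction. Relative to the shifted median these genes stayed close to their values under the median of ratios.

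Other reversals concerned values that were never called. SLC16A1 in SNEB from 1 to 16 wkpp went to 0.01 with total reads, AACS to -0.03 with array weights, and AACS in the interaction to -0.04 with whole gene reads. With 1 library left out, BDH2 in MNEB from 1 to 16 wkpp ranged from -0.25 to 0.07 and AACS from -0.25 to 0.33, SLC16A1 in SNEB from -0.24 to 0.19 and AACS from -0.05 to 0.14, AACS in SNEB 16 wkpp vs MNEB 16 wkpp from -0.12 to 0.49, and AACS in the interaction from -0.32 to 0.28. No paired analysis was possible because the labels give no replicate numbers or cow shared between groups. With 3 libraries per group and MNEB libraries of 1973902 to 7315700 exon reads, low counts such as those of BDH1 after calving limit any comparison among the later groups.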

Other observations

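Markers of other cell types that the biopsies could hold were summed as normalized exon reads, and their part in the values of the ketone body genes was not tested. Macrophage markers (5 genes) ranged from 2343 to 8277 in MNEB, 9852 to 22369 in SNEB and 7408 to 13521 at -4 wkpp, and CD163, a scavenger receptor of macrophages, was called higher in SNEB than in MNEB at 16 wkpp, with 3.29 ± 0.22 (log2 fold change of exon reads, SE). Lymphatic markers (5 genes) ranged from 245 to 683 in MNEB, 1125 to 2890 in SNEB and 1683 to 2018 at -4 wkpp. LYVE1 and CCL21 made up most of the sum at -4 wkpp and in SNEB. PROX1 had means of 225 in MNEB at 1 wkpp, 240 in SNEB at 1 wkpp and 217 at -4 wkpp. At 16 wkpp PROX1 had means of 98.2 in MNEB (59.4 to 125) and 192 in SNEB (154 to 213). LYVE1, a receptor of lymphatic endothelium, was called higher in SNEB than in MNEB at 16 wkpp, with 2.77 ± 0.30. Epidermis and hair markers (7 genes) had 198 to 688 at -4 wkpp, 5.16 to 365 in MNEB and 3.07 to 15.7 in SNEB, and KRT85, a hair keratin, was called higher at -4 wkpp than in SNEB at 1 wkpp, with 8.06 ± 0.54. Endothelial markers (4 genes) ranged from 18170 to 22245 at -4 wkpp, 28535 to 60613 in MNEB and 28013 to 34920 in SNEB at 1 wkpp, and 22746 to 32882 and 21118 to 24169 at 16 wkpp, and VWF, the von Willebrand factor, had -1.39 ± 0.30 and -0.75 ± 0.19 at -4 wkpp over MNEB and SNEB at 1 wkpp. Over all 15 libraries, sebaceous gland markers (6 genes) ranged from 202 to 513, nearly all from FAR2, with group means of the other 5 of at most 9.63, erythrocyte markers (3 genes) from 11.7 to 336, liver markers (3 genes) from 149.6 to 823, and mammary epithelium markers (2 genes) from 0 to 14.8.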
